A study of Mus musculus with 2 samples.

Results

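In mouse islets, 180 of 1125 alpha cells carried the RNA of pancreatic polypeptide (Ppy) beside that of glucagon (Gcg), 111 of 742 in the chow library and 69 of 383 in the HFD library. These Ppy-bearing alpha cells were chosen by their hormone RNA: of the barcodes with at least 500 detected genes and at most 10% mitochondrial UMIs, they gave Gcg at least 5% and Ppy at least 2% of their UMIs, with Ins1 and Ins2 together under 10% and Sst under 1%. Their Gcg, Ppy, insulin and Sst shares are therefore a description and support nothing. They made up 1.74% of 6387 retained chow barcodes and 1.57% of 4394 retained HFD barcodes. The cells they are set against are alpha cells with Ppy under 2% (631 chow, 314 HFD) and PP cells with Ppy at least 15% and Gcg under 5% (192 chow, 155 HFD), under the same limits on insulin and Sst.

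Both libraries came from wild-type C57BL/6J mice, an inbred strain, given chow (4 mice) or a diet with 60% fat (HFD, 5 mice) for 6 weeks from weaning. Hand-picked islets were held overnight in culture before trypsin treatment, and their cells were profiled in droplets, counting the 3' ends of RNA molecules by unique molecular identifiers (UMIs). Each diet has 1 library of pooled mice whose cells are not assigned to animals, so there is no replicate check, no test was made, and each value describes these libraries. Intervals are exact 95% intervals that cover counting error only.

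Alpha cells secrete glucagon, which raises blood glucose, and PP cells secrete pancreatic polypeptide, a peptide of the neuropeptide Y family that slows digestion and appetite. Peptide YY (Pyy), a close relative of pancreatic polypeptide, is made in the gut and in several islet cell types. The transcription factor Irx1 and the carrier protein transthyretin (Ttr) are found in mouse alpha cells, and cells with several hormones are known from islets.

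Retained barcodes held a median of 9291 UMIs in the chow members and 11712 in the HFD members. The libraries held 89292222 and 68544729 UMIs over 6509 and 4539 barcodes, of which 122 and 145 were removed for few genes or much mitochondrial RNA. 45 barcode strings occurred in both libraries. Free RNA was visible in both: endothelial cells, which make no islet hormone, gave a median of 2.107% (chow) and 2.096% (HFD) of their UMIs to Ins1 and Ins2, close to the 2.16% and 1.74% of the members, so insulin RNA in the members is read as background. Ppy stood at a median of 0.0816% and 0.0620% in endothelial cells and 0.123% and 0.0870% in beta cells, far under the 2% limit.

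In the chow members the Ppy share ran from 2.06% to 27.5% with a median of 5.20%, and in the HFD members from 2.1% to 25.8% with a median of 5.88%. The upper quartile was 11.5% and 11.1%, far under the median of 42.5% and 43.8% in PP cells. Gcg had a median of 17.9% in chow and 16.4% in HFD members, against 20.9% and 24.9% in alpha cells with Ppy under 2%. In PP cells Gcg was at a median of 0.082% and 0.0575%, at the level of endothelial cells (0.0731% and 0.0664%). Some PP cells had more, up to 4.8% and 4.9%, and the summed Gcg share of PP cells was 0.250% and 0.476%. Within the members a higher Ppy share went with a lower Gcg share (Spearman's rho of -0.416 over 111 chow cells and -0.468 over 69 HFD cells), as a description over cells of 1 library whose shares add up within each cell. Just under the 2% limit, the 18 chow and 13 HFD alpha cells at 1.5 to 2% had a median Gcg of 22.1% and 22.2% and a median Pyy of 5.65% and 2.46%. Just above it, the 8 chow and 8 HFD members at 2 to 2.5% had a median Gcg of 19.8% and 21.5% and a median Pyy of 4.08% and 5.11%.

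**Figure D1:**
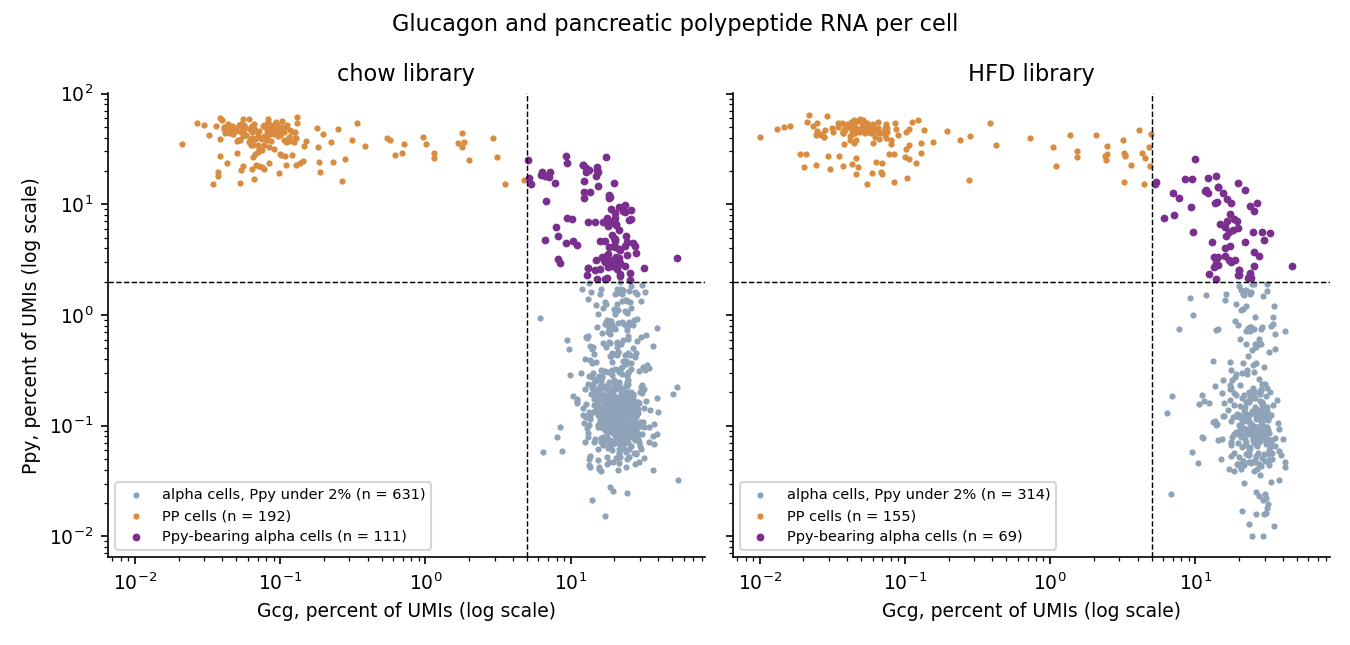
Percent of UMIs from Gcg (x axis) and Ppy (y axis) in each cell, both on log scales, for the chow and HFD libraries. Points are cells, with shares under 0.01% drawn at 0.01%, and dashed lines mark the limits of 5% Gcg and 2% Ppy. The rule itself places the 111 chow and 69 HFD Ppy-bearing alpha cells above the Ppy line and right of the Gcg line.

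Pyy, which the rule did not use, was high in nearly all members. Its median share was 6.76% in chow members (lowest 0.0412%, highest 19.6%) and 6.62% in HFD members (lowest 0.0440%, highest 20.2%). Alpha cells with Ppy under 2% had medians of 1.58% and 1.32%, and PP cells 11.9% and 9.23%. The ranges of the cells overlapped, yet the medians kept this order in both libraries. Pyy reached at least 2% of UMIs in 102 of 111 chow members (91.9%, 85.2 to 96.2%) and 65 of 69 HFD members (94.2%, 85.8 to 98.4%). The same held for 266 of 631 (42.2%, 38.3 to 46.1%) and 112 of 314 (35.7%, 30.4 to 41.2%) alpha cells with Ppy under 2%, and endothelial cells had a median of only 0.0425% and 0.0338%. Many alpha cells therefore carried Pyy with little Ppy, whereas 3 chow members and 1 HFD member had Pyy under 1%. Pyy was also high in delta cells, the somatostatin cells, at medians of 8.72% and 8.32%, together with Ppy at 3.96% and 4.14%.

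Ppy and Pyy are neighbours on mouse chromosome 11, with 0 annotated genes between them in RefSeq. The 250 bases before the start of each of the 3 hormone genes are printed because Gcg, Ppy and Pyy occurred together in these cells (RefSeq, GRCm38.p6, all on the minus strand, the first of 2 starts for Pyy). Capitals mark TATAAA, the letters of the TATA box, or its reverse complement.
Gcg: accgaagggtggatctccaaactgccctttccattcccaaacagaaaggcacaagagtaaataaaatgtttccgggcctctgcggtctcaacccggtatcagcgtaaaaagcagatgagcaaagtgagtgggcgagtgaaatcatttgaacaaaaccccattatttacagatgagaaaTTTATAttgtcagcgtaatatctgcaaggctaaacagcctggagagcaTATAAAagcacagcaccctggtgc
Ppy: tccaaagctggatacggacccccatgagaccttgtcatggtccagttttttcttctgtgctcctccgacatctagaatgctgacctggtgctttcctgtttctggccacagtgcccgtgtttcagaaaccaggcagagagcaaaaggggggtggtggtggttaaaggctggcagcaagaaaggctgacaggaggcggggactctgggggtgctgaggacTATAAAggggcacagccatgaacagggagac
Pyy: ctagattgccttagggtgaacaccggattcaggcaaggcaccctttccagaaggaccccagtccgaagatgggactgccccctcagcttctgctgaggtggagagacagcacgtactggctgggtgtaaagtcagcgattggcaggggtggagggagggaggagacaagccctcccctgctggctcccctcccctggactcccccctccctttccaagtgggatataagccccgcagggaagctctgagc
Searching both strands, TATAAA was found 2 times in Gcg, once in Ppy and not in Pyy, against 13.0% of 27025 promoters of the same length with at least 1 match. TAAT, the core bound by many homeodomain factors, was found 2 times in Gcg and not in Ppy or Pyy, against 55.3% of promoters. No match overlapped another, and the matches describe the letters of these windows only.

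The depth of the members was near that of single alpha cells. Chow members had a median of 9291 UMIs (quartiles 6366 and 11862), 1.14 times the 8151 of alpha cells with Ppy under 2%, whereas PP cells had 14029. HFD members had a median of 11712 (quartiles 8251 and 15372), 1.09 times the 10700 (median 10699.5) of those alpha cells, with PP cells at 14783. The alpha and PP medians add up to 22180 and 25482.5 UMIs, which 1 of 111 chow members (0.901%, 0.023 to 4.92%) and 0 of 69 HFD members (0%, up to 5.21%) reached. Outside the 7 hormone genes the medians were 6271 and 5983 UMIs in chow members and alpha cells, and 8198 and 7550.5 in HFD. Other barcodes with 2 hormones were deeper: those with Gcg at least 5% and insulin at least 10% had medians of 16951 UMIs (19 barcodes, chow) and 23967 (16, HFD), and those with Gcg and Sst at least 1% had 14193.5 (30) and 20155 (15). Beta cells alone had medians of 14725 (chow) and 16781.5 (HFD), and delta cells 8014 and 9240. Members with Ppy at least 15%, the PP limit, had medians of 10165 (23, chow) and 11842 (8, HFD). The doublet caller Scrublet set an automatic threshold that marked 0.047% and 0.0228% of barcodes, so it had not worked, and the share of members above the top 5% of its scores was 6.31% (2.57 to 12.6%) in chow and 4.35% (0.906 to 12.2%) in HFD, beside 1.74% (0.873 to 3.10%) and 4.46% (2.46 to 7.37%) of alpha cells with Ppy under 2%. The labels state doublets under 5%.

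**Figure D2:**
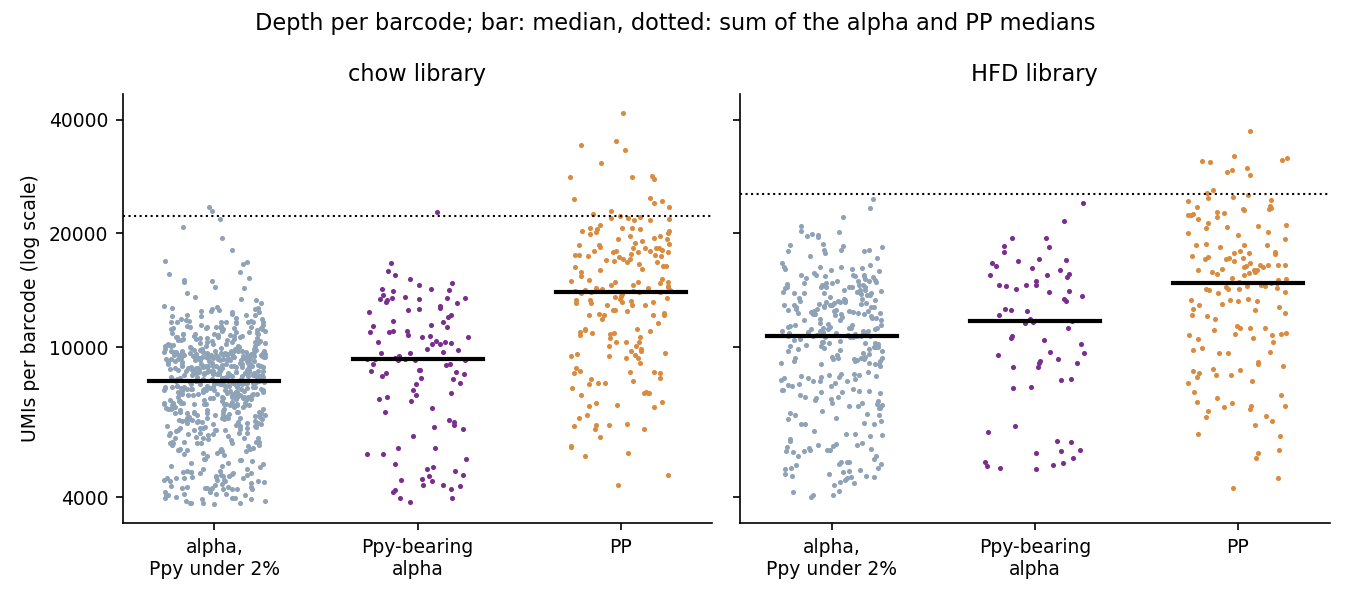
UMIs per barcode on a log scale for alpha cells with Ppy under 2%, Ppy-bearing alpha cells and PP cells in each library. Points are cells, spread sideways at random, bars are medians and the dotted line is the sum of the alpha and PP medians (22180 chow, 25482.5 HFD), which 1 chow member and no HFD member reached.

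The share of alpha cells that carried Ppy was 14.96% (12.5 to 17.7%) in the chow library and 18.0% (14.3 to 22.2%) in the HFD library. Both intervals cover counting error only, and with 1 library per diet the spread between mice is not known, so the diets were not compared in this share.

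When the hormone genes were left out, the members lay among alpha cells. Of the 15 nearest neighbours of each member in 30 principal components, 63.5% in chow and 61.8% in HFD were alpha cells with Ppy under 2%, 27.1% and 23.4% were other members, and 5.17% and 9.66% were PP cells. PP cells made up 0.201% and 0.382% of the neighbours of alpha cells with Ppy under 2%, and members 8.55% and 9.81%. Members thus made up a larger share of the neighbours of members than of the neighbours of those alpha cells. Alpha cells and members were the most common neighbours of 105 of 111 chow and 62 of 69 HFD members. PP cells were so for 4 members in each library, whose median Ppy share was 22.7% and 16.2%, at the upper end of the members.

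Among single genes, few set the members apart from other alpha cells. Levels are given as CPM, the counts of a gene summed over the cells of a class in 1 library, per 1000000 UMIs outside the 7 hormone genes, and a gene is called when its ratio was at least 2-fold in the same direction in both libraries. Of 2595 genes measured, 3 were called higher in the members (0.116%) and 2 lower (0.0771%). The median log2 ratio over all of them was 0.07 in chow and 0.03 in HFD. The genes called higher were Tspan8, Folr1 and Fgb, all of them genes with high levels in PP cells, and those called lower were Mgp and Gfra3.

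Tspan8, a tetraspanin membrane protein, stood at 217 CPM (183 to 255) in chow members and 127 CPM (98.3 to 161) in HFD members. Alpha cells with Ppy under 2% had 36.5 and 19.5 CPM, and PP cells 1399 and 1035. The log2 ratio to those alpha cells was 2.57 in chow and 2.70 in HFD, and 2.63 and 3.07 when only members up to the alpha median of UMIs were kept. A Tspan8 UMI was seen in 62 of 111 chow members (55.9%) and 31 of 69 HFD members (44.9%), against 12.8% and 11.5% of alpha cells with Ppy under 2%. Endothelial cells, as a measure of background, had 7.39% at a median of 7149.5 UMIs and 15.2% at 6758. With each cell thinned to 4000 UMIs, leaving out 3 chow members and no HFD member, the shares were 38.0% and 15.9% in members and 8.90% and 6.05% in alpha cells with Ppy under 2%. Tspan8 was no PP-specific gene here, since delta cells had 755 and 637 CPM.

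Folr1, a folate receptor, was at 138 CPM (111 to 169) in chow members and 117 CPM (90.0 to 151) in HFD members. It stood at 25.1 and 42.0 CPM in alpha cells with Ppy under 2% and 630 and 419 CPM in PP cells, which gave log2 ratios to those alpha cells of 2.46 and 1.49. Delta cells had Folr1 at 269 and 226 CPM, so it was not specific to PP cells either. The HFD ratio was under 2-fold in members up to the alpha median of UMIs (0.61), in members with Ppy at least 5% (0.79) and after thinning (0.76). Fgb, the beta chain of the clotting protein fibrinogen, was at 214 CPM (180 to 252) and 176 CPM (142 to 216), near the 252 and 234 CPM of PP cells and above the 34.9 and 47.1 CPM of alpha cells with Ppy under 2%. Its RNA sat in few members: 28 of 111 chow and 19 of 69 HFD members had a UMI, and the 5 richest cells held 53.9% and 67.7% of it. Its log2 ratio to those alpha cells was 2.61 in chow and 1.90 in HFD, and 2.78 and 0.95 in members up to the alpha median of UMIs. After thinning Fgb had 2.38 and 1.73 and was the 1 gene still called higher. Tspan8 kept ratios of 2.95 and 2.94 there but had 35 counts over both classes in HFD, under the minimum of 50.

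The difference in Mgp, a matrix protein of mesenchymal cells, rested on the other alpha cells. A single alpha barcode in each library held 713 of 746 (chow) and 763 of 792 (HFD) of the Mgp UMIs of alpha cells with Ppy under 2%, along with 43 and 82 UMIs of the other 7 mesenchymal markers. Without that barcode the log2 ratio of Mgp was 0.54 and 0.17, and the genes called lower numbered 1, Gfra3. Gfra3, a receptor of the neurotrophic factor artemin, rested on 23 and 9 counts in members, 34.8 and 17.0 CPM against 73.2 and 52.2 CPM in alpha cells with Ppy under 2%, and on 1 and 0 counts in PP cells. Its log2 ratio to those alpha cells was -1.04 in chow and -1.54 in HFD, but -0.45 and -0.25 in members up to the alpha median of UMIs.

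Just under the 2-fold limit stood genes that define alpha cells. Ttr, a carrier of thyroid hormone and retinol, was at 26205 and 19852 CPM in members, 42537 and 44100 CPM in alpha cells with Ppy under 2% and 4372 and 2929 CPM in PP cells, with log2 ratios to those alpha cells of -0.70 and -1.15. Among members up to the alpha median of UMIs the Ttr ratio was -1.01 in chow and -1.28 in HFD. Irx1, an Iroquois transcription factor, was at 43.9 CPM (29.4 to 63.1) and 36.0 CPM (21.7 to 56.2) against 74.2 and 68.7 CPM, from 29 and 19 counts. Cryba2, a crystallin seen in islet endocrine cells, was at 321 and 275 CPM against 528 and 469 CPM.

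The other genes of this contrast that the naming rule picked were closer to the alpha level. On the higher side they were Smim1, Gpx2, Kcnmb2, Stmn3, Cldn4, Rap1gap, Cdh1, Hs6st1 and Rgs4, with log2 ratios of 0.60 to 1.12. Gpx2 is a glutathione peroxidase, Cldn4 a tight-junction claudin, Cdh1 the adhesion protein E-cadherin and Rgs4 a regulator of G protein signalling. The lower side held Fmn2, Tbl1x, Ankrd44, Cmtm4, Eef1a2 and Tcf4, with log2 ratios of -1.15 to -0.64. Smim1 had -0.093 in chow and -0.12 in HFD after thinning. These genes were counted 19 to 194 times per library in the members, and the rule picked extremes among 2595 genes.

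Not all of the alpha cell program was lower in the members. Higd1a, a mitochondrial protein induced by low oxygen, was at 603 and 619 CPM in members and 607 and 677 CPM in those alpha cells, with 44.3 and 75.2 CPM in PP cells. Of the 24 genes listed for alpha cell identity 16 were measured, 0 were called, 8 were lower in both libraries and 3 higher in both, with a median log2 ratio of -0.18 in each library. The PP marker list had 6 of 15 measured, with 1 called higher (Tspan8), and medians of 0.21 and 0.29. Over all 2595 genes measured the medians were 0.07 and 0.03, with 935 higher in both libraries and 526 lower. With CPM over all UMIs 1 gene of the alpha list was higher and 10 lower, where 347 of all genes were higher and 1244 lower.

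**Figure D3:**
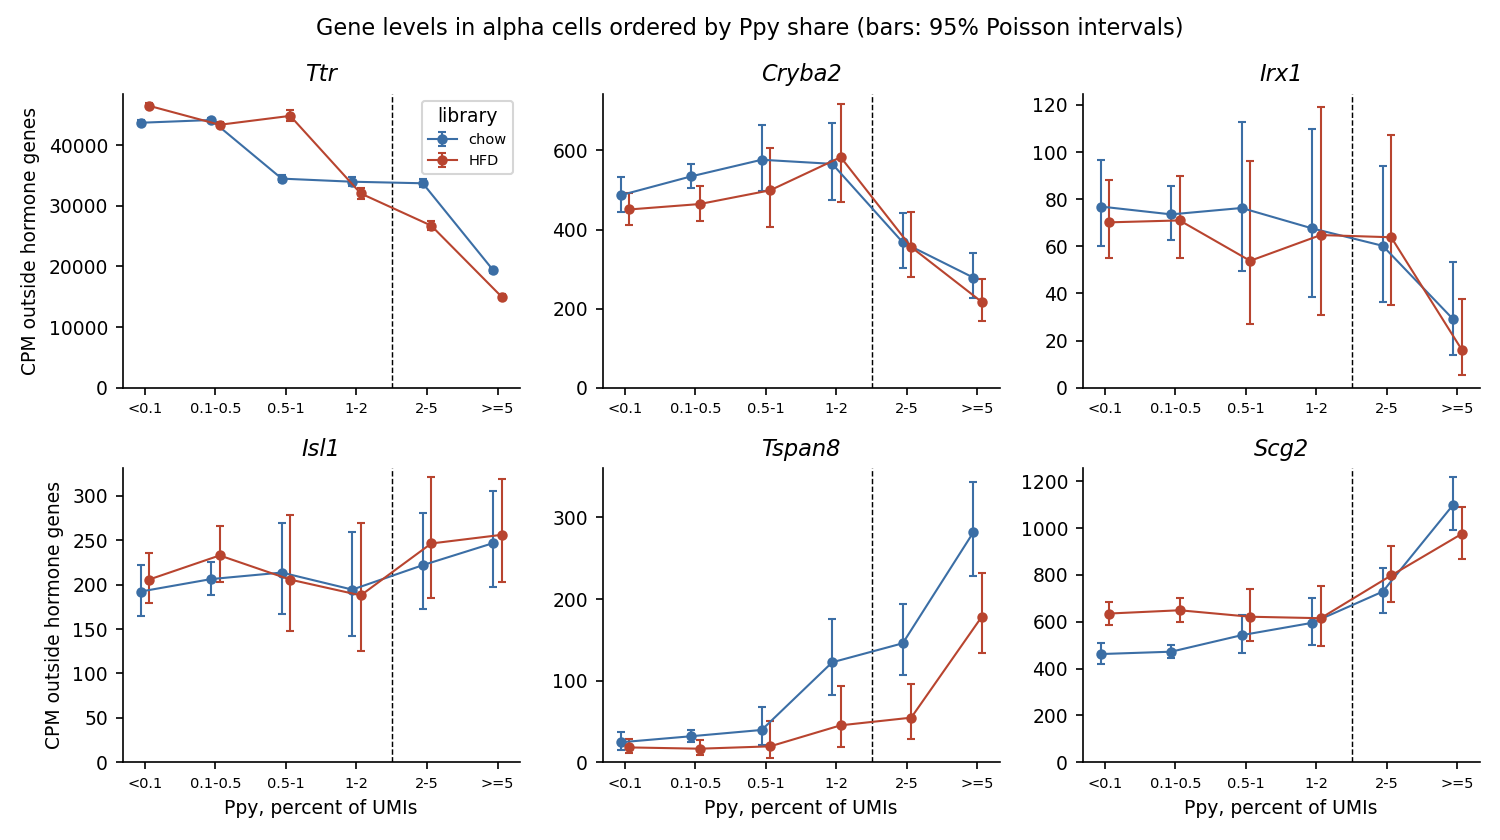
Levels of 6 genes in alpha cells ordered by the percent of UMIs from Ppy (x axis, 6 groups; dashed line at the 2% limit), in CPM over the UMIs outside the hormone genes (y axis), with 95% Poisson intervals. Blue is chow and red HFD. In cells with Ppy at least 5%, Ttr, Cryba2 and Irx1 are lowest and Tspan8 and Scg2 highest in both libraries, while Isl1 is not lower.

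Alpha cells were also ordered by their Ppy share. Ttr was at 43671 CPM (chow) and 46458 CPM (HFD) in alpha cells with Ppy under 0.1%, at 33696 and 26715 CPM in members with 2 to 5%, and at 19346 and 14975 CPM in members with at least 5%. Below the limit, at Ppy of 1 to 2%, Ttr was already at 33952 CPM (33214 to 34702) and 32018 CPM (31132 to 32923). Irx1 had 76.9 and 70.2 CPM under 0.1%, 60.2 and 63.8 CPM from 2 to 5%, and 29.0 CPM (13.9 to 53.4) and 16.2 CPM (5.26 to 37.8) at 5% and above. Cryba2 was not lower below the limit, with 487 and 451 CPM under 0.1% and 566 and 583 CPM from 1 to 2%, and had 368 and 356 CPM from 2 to 5% and 279 and 217 CPM at 5% and above. Folr1 had no common order in the libraries: in chow it was at 22.4 CPM under 0.1%, 69.7 CPM from 2 to 5% and 200.2 CPM at 5% and above, and in HFD at 43.2, 182 and 71.3 CPM. These groups held 154 and 139, 54 and 28, and 57 and 41 cells, in chow and HFD.

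Pax6 and Isl1, transcription factors of all islet endocrine cells, were at 268 and 192 CPM (chow) and 293 and 206 CPM (HFD) in the lowest group, and at 290 and 247 CPM (chow) and 314 and 256 CPM (HFD) at 5% and above. Scg2, a granin of secretory granules, was at 462 and 635 CPM in the lowest group and 1100 and 975.2 CPM in the highest, toward the 2580 and 2003 CPM of PP cells. Delta cells had Scg2 at 3780 and 3402 CPM and beta cells at 2699 and 3117 CPM, so it does not single out PP cells. Slc7a2 and Slc38a4, amino acid transporters of alpha cells, were at 165 and 75.5 CPM (chow) and 146 and 94.0 CPM (HFD) at Ppy of 5% and above, against 236 and 146 CPM (chow) and 239 and 139 CPM (HFD) under 0.1%. Median depth moved with the Ppy share, from 8217 to 9850 UMIs in chow and from 10888 to 13243 UMIs in HFD between the lowest and highest group, and its part in these values was not tested.

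Against PP cells the members differed in more genes. Of 2890 genes measured, 25 were called higher in the members (0.865%) and 64 lower (2.21%), with a median log2 ratio over all of them of -0.16 in chow and -0.14 in HFD. This split depended on the scale. Over the same 2890 genes with TMM factors, 36 were higher and 45 lower. With CPM taken over all UMIs, of which PP cells give 41.0% (chow) and 41.7% (HFD) to Ppy alone, the median over those genes was 0.41 and 0.38, with 126 higher and 15 lower. When the minimum of 50 CPM was also applied on that scale, 1575 genes were measured, the median was 0.50 and 0.45 and the counts 101 higher and 10 lower. The genes named here keep their direction on each scale tried.

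The genes named as higher in the members were also higher in alpha cells with Ppy under 2% than in PP cells. Higd1a had log2 ratios to PP cells of 3.76 in chow and 3.04 in HFD, and Ttr 2.58 and 2.76. Tmsb15b2 and Tmsb15l, near-identical thymosin genes whose reads may be shared, had 2.93 and 2.73, and 3.05 and 2.14. Slc30a8, the zinc transporter of secretory granules, was at 376 and 477 CPM in members and 66.0 and 91.7 CPM in PP cells. Beta cells had Slc30a8 at 532 and 631 CPM, so it does not single out alpha cells. Slc7a8, an amino acid transporter, was at 144 and 106 CPM against 27.6 and 29.3 CPM, and Irx2 at 56.1 and 70.1 CPM against 12.5 and 17.4 CPM.

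Of the 64 genes called lower, 3 were among the 6 measured PP markers, where 2.21% of all 2890 genes measured were called lower. With CPM over all UMIs, 3 of the 6 markers were lower in both libraries and 3 higher. Of all genes 339 were lower and 2032 higher on that scale. Limch1, an actin-binding protein, had 0 counts in the members of both libraries against 64 counts in each set of PP cells, 53.5 and 58.7 CPM. Set against a floor of 3 counts per library, it was at least 11.8-fold lower in chow and at least 10.3-fold lower in HFD members. Alpha cells with Ppy under 2% had only 2 and 0 counts of Limch1, and endothelial cells had 62.2 and 122 CPM. Gstm1, a glutathione transferase, was at 43.9 and 39.8 CPM in members and 328 and 318 CPM in PP cells. Hadh, an enzyme of fatty acid oxidation, was at 21.2 and 26.5 CPM against 215 and 193 CPM, and Cd9, a tetraspanin, at 66.7 and 70.1 CPM against 427 and 336 CPM. Hspb8, Neat1 and S100a10 were the other genes named on this side, with log2 ratios of -2.69 to -2.26.

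The level of each gene can be placed between alpha cells with Ppy under 2% (position 0) and PP cells (position 1). For the hormones, from summed shares, Gcg was at 0.206 (chow) and 0.302 (HFD), Ppy at 0.209 and 0.181, and Pyy at 0.483 and 0.634. Of 22 other genes at least 4-fold apart between those classes in both libraries, the 11 high in alpha cells had a median position of 0.234 in chow and 0.372 in HFD, and the 11 high in PP cells had 0.109 and 0.081. The alpha genes spread widely. Tmsb15l (0.006 and 0.070), Higd1a (0.007 and 0.096) and Tmsb15b2 (0.087 and 0.042) stayed at the alpha level, whereas Ttr (0.428 and 0.589) and Cryba2 (0.475 and 0.502) lay near the middle. Of the PP genes, Hadh (0.015 and 0.072), Cd9 (0.050 and 0.081) and Neat1 (0.109 and 0.045) were near the alpha level, Tspan8 was at 0.132 and 0.106, Folr1 at 0.186 and 0.200, and only Fgb lay past the middle in both libraries (0.822 and 0.691). So the genes did not share 1 position, and the single Mgp-rich barcodes place Mgp (0.984 and 1.10) in this set.

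**Figure D4:**
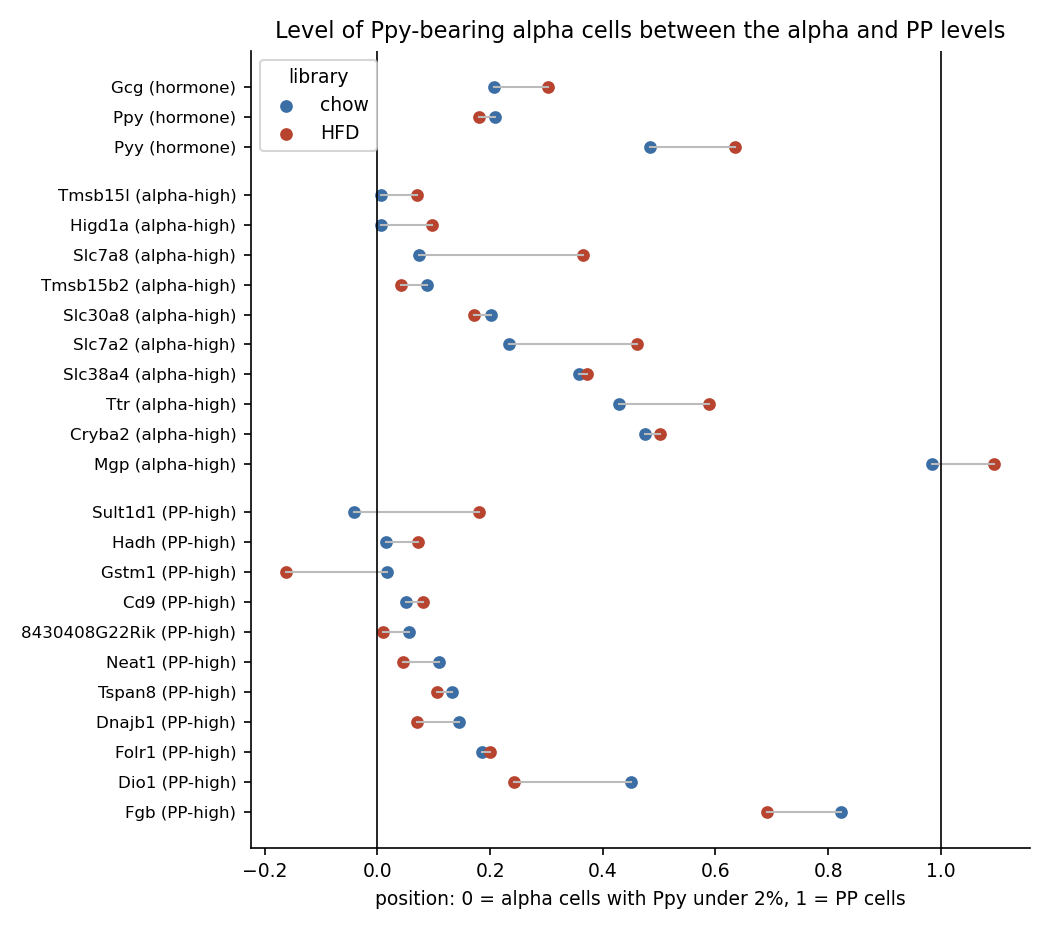
Position of the Ppy-bearing alpha cells for 3 hormone genes and 21 of the 22 other genes, where 0 is the level in alpha cells with Ppy under 2% and 1 that in PP cells (x axis, no unit). Each row is a gene, blue is chow and red HFD. Higd1a stays near 0 (0.007 and 0.096), Cryba2 and Ttr lie near the middle and Fgb near PP cells, and Mgp rests on 1 alpha barcode per library.

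Metallothioneins, which bind zinc and copper, were higher in the members than in other alpha cells for both measured genes of 3 listed, with 0 called. Mt1 was at 1916 and 680 CPM against 1417 and 436 CPM, and Mt2 at 1256 and 428 CPM against 967 and 240 CPM, and both were higher on each scale tried. The 5 richest members held 20.5% (chow) and 42.1% (HFD) of the Mt1 counts of the members, and 26.9% and 47.8% of those of Mt2. Of 3 measured genes for amine and GABA synthesis 0 were called, with a median log2 ratio of 0.10 in chow and -0.70 in HFD. Among 15 measured islet transcription factors 0 were called, and their median log2 ratio was -0.24 in chow and 0.05 in HFD. The granule list had 14 measured genes and 0 called. In it Scg2 was higher in the members (923 and 902 CPM against 484 and 638 CPM), and Chga, chromogranin A, was at 2949 and 3010 CPM against 3593 and 4953 CPM. For prohormone processing 5 genes were measured and 0 called. Pcsk2, the convertase that yields glucagon, stood at 3914 and 4722 CPM in members, 4033 and 5946 CPM in alpha cells with Ppy under 2% and 3439 and 3806 CPM in PP cells. The unfolded protein response had 16 measured genes and 0 called, with 8 higher in both libraries and 0 lower in both, where 935 of all 2595 genes were higher in both and 526 lower. With CPM over all UMIs 5 were higher and 4 lower, where 347 of all genes were higher and 1244 lower. Against PP cells, 16 of 19 measured genes of that response were lower in both libraries and 2 were called lower, where 1448 of all 2890 genes were lower in both. With CPM over all UMIs 9 of the list were lower and 3 higher, where 339 of all genes were lower and 2032 higher.

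Markers of other cell types were counted as sums over fixed lists. Summed over 8 endothelial markers the members had 21.2 and 28.4 CPM (56.8 and 19.5 in alpha cells with Ppy under 2%, 136 and 28.4 in PP cells), with 0 to 2 UMIs per cell. Over 8 macrophage markers they had 71.2 and 77.7 CPM (114 and 57.3, 147 and 128), with 0 to 4 UMIs per cell, and C1qb was at 0. Over 8 mesenchymal markers they had 16.7 and 22.7 CPM (214 and 378, 16.7 and 77.9), with at most 1 UMI per cell and 5 markers at 0, Col1a1 and Col3a1 among them. Of 18 beta markers beside the hormones 5 and 4 were at 0, Mafa among them, and their sum was 648 and 669 CPM against 705 and 736 CPM in alpha cells with Ppy under 2%. The 11 delta and epsilon markers summed to 844 and 926 CPM against 972 and 1085 CPM. The 15 exocrine and Schwann cell markers summed to 364 and 248 CPM against 346 and 317 CPM, and 542 and 415 CPM in PP cells, with Sox10 and S100b at 0. The endothelial and macrophage sums were higher in members than in other alpha cells in HFD and lower in chow. The chow sums of those alpha cells rested in part on single barcodes, with up to 162 endothelial and 227 macrophage UMIs. The part of these sums in the other results was not tested.

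Between the diets, the members differed in genes of which some, Fosb, Mt1 and Mt2 among them, differed likewise in other alpha cells. Of 2927 genes measured in the members, 34 were at least 2-fold higher in HFD (1.16%) and 23 lower (0.786%), with a median log2 ratio of HFD over chow of -0.02. Fosb, an immediate early transcription factor, was at 42.4 CPM (28.2 to 61.3) in chow and 246 CPM (206 to 292) in HFD members, a log2 ratio of 2.52, beside 2.72 in alpha cells with Ppy under 2% and 3.35 in PP cells. Lztfl1, a protein of ciliary trafficking, was at 49.99 and 146 CPM (log2 ratio 1.53), beside 1.39 and 1.14 in the other classes.

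Mt1 and Mt2 were lower in HFD members. Mt1 was at 1916 CPM (1812 to 2025) in chow and 680 CPM (611 to 754) in HFD members, and Mt2 at 1256 and 428 CPM, log2 ratios of -1.49 and -1.55. Alpha cells with Ppy under 2% had -1.70 and -2.01. PP cells of the same libraries had 0.01 and 0.21, and the difference between the classes was not tested. Crybb3, a crystallin, had -1.64 in members and -1.44 in alpha cells with Ppy under 2%, from 56 and 14 counts in members. Dnajb1, a heat shock cochaperone, had -1.29, with -1.02 in those alpha cells and -1.14 in PP cells.

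Some genes differed between the diets in the members and less or not in other alpha cells. C2cd4b, a nuclear protein near a diabetes risk locus in humans, was at 98.5 CPM (76.0 to 126) in chow and 37.9 CPM (23.1 to 58.5) in HFD members, a log2 ratio of -1.35 beside 0.17 in alpha cells with Ppy under 2%. It rested on 65 and 20 counts in 23 and 11 cells, of which the 5 richest held 43.1% and 70.0%. Rabgap1l, Pja1, Csnk2a1, Capsl, Luc7l and Smarca1 had log2 ratios of 1.22 to 1.58 in members and -0.06 to 0.64 in those alpha cells, and Shisa5, Trim28 and Acot13 -1.34 to -1.23 and -0.49 to -0.16. Their counts in members ran from 13 to 98 per library, the rule picked them as extremes, and the difference between the classes was not tested.

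**Figure D5:**
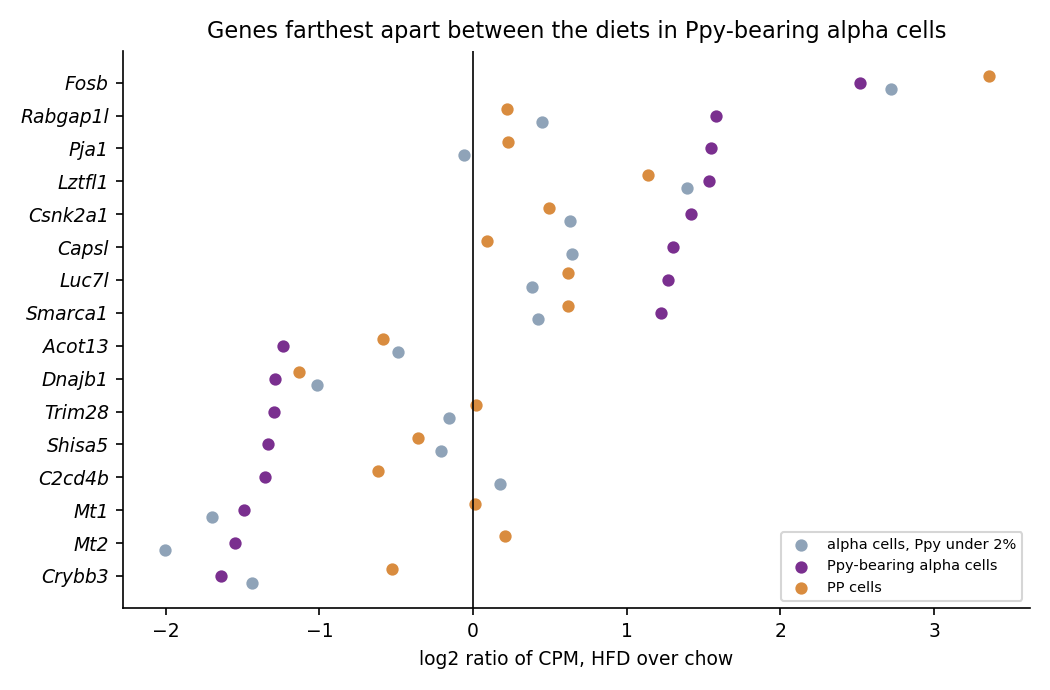
Log2 ratio of CPM, HFD over chow (x axis), for the 16 genes farthest apart between the diets in Ppy-bearing alpha cells (rows). Purple points are the members, grey alpha cells with Ppy under 2% and orange PP cells. Fosb, Lztfl1, Mt1, Mt2, Crybb3 and Dnajb1 have similar ratios in members and other alpha cells, and Mt1 and Mt2 lie near 0 in PP cells.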

How the data were processed

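RNA was measured in single islet cells of wild-type mice, with 1 droplet library for chow and 1 for HFD. The deposited matrices hold raw UMI counts per gene and barcode. Per the submitters' processing notes, the authors used Cell Ranger 2.1.0. Which genome build and cell-calling rule they used is not given in the sources used here. The gene table has 27998 genes.

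Barcodes with under 500 genes or over 10% mitochondrial UMIs were removed. Doublets were scored with Scrublet (scanpy 1.11.5) but not removed. Counts were summed per class and library and scaled to CPM over the UMIs outside Gcg, Ppy, Pyy, Ins1, Ins2, Sst and Iapp, since these take large and unequal shares. Log2 ratios have 0.5 counts added. A gene counted as measured from 50 CPM in 1 of the classes compared and 50 counts over both. Delta cells had Sst at least 5%, and endothelial cells at least 10 UMIs of their markers. CPM has exact Poisson and shares exact Clopper-Pearson 95% intervals. Genes named were the 12 highest and 12 lowest against alpha cells, 8 and 8 against PP cells (ranked by the smaller ratio of the libraries) and 8 and 8 between diets, plus defining markers and up to 4 members of each list. Predicted and mitochondrial genes were left out. Principal components used 2000 variable genes. The ratio script was tested on simulated data. TMM factors came from edgeR 4.0.16. The members and gene lists were chosen with earlier results of these data known. Where cells were thinned, those under 4000 UMIs were left out. Some genes picked by this rule or listed are not reported here.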

Additional observations from a re-analysis of the deposited data

How the results depend on the processing

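The share of alpha cells that carried Ppy was 20.2% (chow) and 23.5% (HFD) with a Ppy limit of 1%, 7.68% and 10.7% with a limit of 5%, and 22.4% in chow with insulin under 2%. Counting only UMIs outside the hormone genes, chow members had 1.05 times the median depth of the other alpha cells. Without a CPM minimum, 292 genes were at least 2-fold higher and 147 lower than in the other alpha cells, 343 and 590 against PP cells, and 1897 and 1613 between the diets. These shares were 2.17% and 1.09%, 2.68% and 4.61%, and 14.6% and 12.4% of the genes measured. With a minimum of 20 CPM the counts were 10 and 4, 55 and 147, and 193 and 137. After thinning to 4000 UMIs they were 1 and 4, 14 and 28, and 15 and 12, which are 0.0388% and 0.155% of 2578 genes measured, 1.05% and 2.11% of 1328, and 1.19% and 0.954% of 1258, with 1 and 1, 13 and 20, and 4 and 3 of them called without thinning. With members up to the alpha median of UMIs, 15 genes were higher than in the other alpha cells, 111 lower than in PP cells, and 8 higher and 14 lower in HFD, which are 0.555% of 2704 genes measured, 3.77% of 2943, and 1.11% and 1.94% of 720. With members of Ppy at least 5%, 9 were lower than in the other alpha cells (0.345%) and 13 higher in HFD (0.730% of 1782). With CPM over all UMIs, 101 were higher and 10 lower than in PP cells (of 1575), 126 and 15 over the 2890 genes of the main scale, and 9 were lower in HFD (0.477% of 1888). Of the genes lower than in the other alpha cells, 0 were left without the top 5% of Scrublet scores, 1 without members of Ppy 15% or more, and 1 without the alpha barcodes rich in Mgp. Smim1 turned to -0.093 (log2, chow) after thinning. Mgp turned to 0.29 (HFD) without the top Scrublet scores, and to 0.54 and 0.17 without the barcodes rich in it. The cause of these shifts was not tested, except that Mgp rests on those barcodes.

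The other 90 comparison values moved by less than their limits, and 1038 ratios of named genes did so, while 126 moved further. Of the 48 ratios against the other alpha cells, 4 changed sign with members up to the alpha median of UMIs, 4 after thinning, 2 without the barcodes rich in Mgp and 1 without the top Scrublet scores, and 0 in the other alternatives run. The 32 ratios against PP cells and the 16 between diets kept their sign in each alternative run. Leaving out members of Ppy 15% or more or the barcodes rich in Mgp, and keeping the 2890 genes, were chosen after seeing the data. No paired analysis was possible because each diet has 1 library, and for the same reason no library could be left out.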
